A study of Mus musculus with 26 samples.

Results

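Accessible regions that were called only after retinoic acid (RA) numbered 8428 in mouse embryonic stem cells. They are peaks of ATAC-seq, an assay in which a transposase inserts adapters into open chromatin, so that fragments pile up where DNA is accessible. A member was chosen by the peak lists themselves. It is a peak of the RA library on chromosomes 1 to 19 or X, its fold over the local background was at least 5, and no peak of the LIF library overlapped it by 1 bp or more. These were 8428 of the 107843 RA peaks that reached that fold, or 7.82%, and the whole RA list held 141465 peaks. The other 99415 RA peaks of that fold overlapped a LIF peak and are called shared below. The mirrored rule gave 21862 LIF-only peaks, 17.5% of the 125011 LIF peaks of that fold.

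The cells were E14, a single established line of mouse embryonic stem cells that was grown without feeder cells. In the LIF state (mESC+) the medium held leukemia inhibitory factor, a cytokine that maintains pluripotency through STAT3. In the RA state (mESC−) it was replaced for 4 h before harvest by medium that lacked LIF and held 1 µM RA, so that loss of LIF and gain of RA cannot be told apart. Each state had 1 ATAC-seq library, and RNA-seq was made on 3 libraries per state. Neither library had a replicate, so no difference between the states could be tested. Shares below carry exact 95% Clopper-Pearson intervals over peaks, or over matches, genes or regions where those are counted. These intervals cover counting error only, and peaks of 1 library are not replicates of a condition.

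RA is a derivative of vitamin A that enters the nucleus and binds the RA receptors, Rara, Rarb and Rarg. These form pairs with the retinoid X receptors on DNA that holds 2 copies of a six-base half-site in the same direction. A direct repeat spaced by 5 bases (DR5) or by 2 bases (DR2) is the textbook RA response element, and DR0 denotes 2 half-sites with no base between them. In embryonic stem cells RA activates genes that clear it, such as Cyp26a1, and the 3′ genes of the Hox clusters, which pattern the embryonic axis. The half-site was searched here on both strands as AGGTCA or the related form AGTTCA, each also with a G in place of the first A.

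The members with the highest fold that held a DR5 without mismatch in the 300 bp around their summit are shown first, because the DR5 had the highest ratio between its share in members and in shared peaks. Each stretch is named by the closest protein-coding gene start, is written 5′ to 3′ on the strand of the repeat from GRCm38, and has both half-sites in capitals.
Tmem161b, chr13:84515092-84515136, plus strand: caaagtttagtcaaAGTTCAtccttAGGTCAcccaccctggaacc
Lrmda, chr14:22203999-22204043, minus strand: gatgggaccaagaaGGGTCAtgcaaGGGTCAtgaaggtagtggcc
Amotl1, chr9:14585840-14585884, minus strand: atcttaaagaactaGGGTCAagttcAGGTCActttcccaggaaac
Cyp26a1, chr19:37789454-37789498, plus strand: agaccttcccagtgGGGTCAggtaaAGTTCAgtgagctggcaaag
Foxp2, chr6:15063415-15063459, plus strand: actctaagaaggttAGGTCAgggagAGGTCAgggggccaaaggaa
Trpv3, chr11:73263099-73263143, minus strand: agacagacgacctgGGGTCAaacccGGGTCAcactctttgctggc
Pcdh17, chr14:85034003-85034047, plus strand: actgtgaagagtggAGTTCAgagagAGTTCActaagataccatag
Ano5, chr7:51300456-51300500, minus strand: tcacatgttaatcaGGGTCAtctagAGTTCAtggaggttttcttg
Pum3, chr19:27482387-27482431, minus strand: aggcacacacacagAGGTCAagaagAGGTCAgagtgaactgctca
Has2, chr15:56842991-56843035, plus strand: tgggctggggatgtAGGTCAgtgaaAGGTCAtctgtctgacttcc

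Next are 2 members of high fold with a DR2 and no DR5. They are followed by the 3 of highest fold with a DR0 and neither of the other repeats. The same half-site was searched in every class, so that the likeness of the half-sites follows from the search.
Dynlt1b, chr17:6413043-6413084, plus strand: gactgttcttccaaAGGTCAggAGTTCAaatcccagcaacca
Nfkbiz, chr16:55758085-55758126, plus strand: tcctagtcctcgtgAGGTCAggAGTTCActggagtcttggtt
Dcbld2, chr16:58393203-58393242, minus strand: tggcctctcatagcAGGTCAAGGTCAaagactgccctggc
Tbc1d1, chr5:64186624-64186663, minus strand: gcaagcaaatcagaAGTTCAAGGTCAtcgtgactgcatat
Pcdh10, chr3:44303984-44304023, plus strand: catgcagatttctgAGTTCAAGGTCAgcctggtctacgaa

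The values that chose the members are given as a description. Their median fold was 5.84, with 5% to 95% of members between 5.12 and 7.7 and a highest value of 13.6. Shared peaks had a median of 7.93 and LIF-only peaks one of 5.62. At a fold of 8 or more there were 313 members, and at 10 or more there were 51, or 0.605% of members against 30.7% of shared peaks. Among all RA peaks the RA-only share was 21.7% at a fold of 5 to 6, 8.85% at 6 to 7 and 0.167% at 10 or more. Members were also narrow, with a median width of 121 bp against 221 bp in shared peaks and 127 bp in LIF-only peaks. The set therefore consisted mostly of narrow peaks of low fold.

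At the edge of the rule, 369 members had a fold from 5 to 5.1, and 364 RA peaks without a LIF peak lay between 4.9 and 5. The lowest member had a fold of 5.0003 and the highest peak left out by the fold had 4.9978. On the side of overlap, 41 members had a LIF peak within 10 bp and 2472 (29.3%) had one within 1000 bp, whereas 2281 (27.1%) had none within 10 kb. The median gap to the next LIF peak was 3925.5 bp. Of the shared peaks, 52 overlapped LIF peaks by 10 bp or less.

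Depth is unknown for both libraries. The commonest fold values of the lists rose in steps of 0.593 for RA and 0.562 for LIF. The LIF list was also longer, with 163484 peaks, and its share of state-only peaks was larger. The part of unequal depth in membership was not tested. The label of the cells was checked at the starts of 7 pluripotency genes, of which 6, Pou5f1, Sox2, Nanog, Klf4, Zfp42 and Tfcp2l1, had a peak within 1 kb in both lists and Esrrb had none. Of 8 markers of endoderm, neural cells, fibroblasts and liver, 6 also had a peak in both lists, and Gata4 and Alb had none, so that accessibility at these starts did not separate the cell types.

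Members lay away from gene starts. Only 6.4% of them (95% interval 5.88 to 6.94, 539 of 8428) had their summit within 1 kb of an annotated gene start, against 18.9% (18.6 to 19.1) of shared peaks and 5.59% (5.29 to 5.9) of LIF-only peaks. Introns held 44.4% of members (43.4 to 45.5), intergenic sequence held 42.9% (41.9 to 44) and exons held 6.25% (5.75 to 6.79). The median distance to the nearest gene start was 18370.5 bp for members, 11384 bp for shared peaks and 17024.5 bp for LIF-only peaks. By location the members resembled the LIF-only peaks more than the shared peaks.

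**Figure D1:**
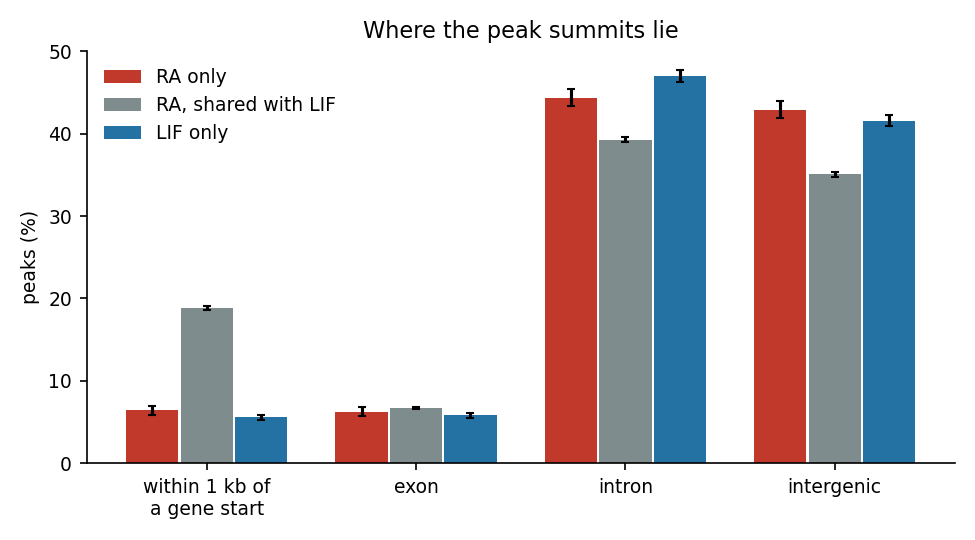
Shares of peak summits (y axis, percent) within 1 kb of a gene start, in exons, in introns and in intergenic sequence, for RA-only, shared and LIF-only peaks, with exact 95% intervals as error bars. RA-only and LIF-only peaks lie at gene starts in 6.4% and 5.59% of cases and shared peaks in 18.9%.

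Members and shared peaks also differed at gene starts within bands of fold, in which width was not matched. At a fold of 5 to 6, gene starts held 6.8% of members (6.17 to 7.47) and 14.7% of shared peaks (14.2 to 15.2). At a fold of 8 to 10 the shares were 4.2% (2.11 to 7.39) and 19% (18.4 to 19.5). LIF-only peaks, by their fold in the LIF list, had 6.29% (5.88 to 6.73) and 3.97% (2.85 to 5.36) in these bands, near the members. Member windows had a median GC content of 48.7%, against 51% in shared peaks, 48.7% in LIF-only peaks and 41.7% in 25601 windows placed every 100 kb along the genome. Repeat-masked bases made up at least 50% of the window in 19.8% of members, 13.7% of shared peaks, 23.1% of LIF-only peaks and 27.5% of the genome windows.

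Among the members at protein-coding starts, the highest fold was 10.1, at Prss47 and at Fam84b. The Prss47 peak, chr13:65052733-65052892, had its summit 0.039 kb from the start, lay 17.4 kb from the next LIF peak and held a DR5 without mismatch. Prss47 encodes a serine protease of the trypsin family. The peak at Gna15, which encodes a G protein alpha subunit, had a fold of 8.01, and a LIF peak lay 0.047 kb away. Gene-start members thus included both isolated peaks and peaks at the rim of a LIF peak.

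The members were spread over all chromosomes. The RA-only share of RA peaks ranged from 6.42% (5.57 to 7.36) on chromosome 19 to 8.88% (8.18 to 9.63) on chromosome 3, and it was 8.6% on X. Per megabase, X held 1.46 members and the autosomes between 2.48 and 3.83. On a fixed grid of 100-kb windows, 6837 of 26350 windows held a member, 65.2% of members were alone in theirs, and 7 windows held 5 or more.

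Members held the repeats of RA receptors more often than the other peaks. A DR5 without mismatch stood within the 300-bp window of 155 members, or 1.84% (1.56 to 2.15), of 0.286% (0.253 to 0.321) of shared peaks and of 0.0503% (0.0251 to 0.09) of LIF-only peaks. The share in members was 6.44 times that in shared peaks. With at most 1 mismatch the shares were 6.79% (6.26 to 7.34), 2.56% (2.46 to 2.66) and 1.81% (1.64 to 2), beside 2.14% (1.97 to 2.33) of the genome windows. By either measure the intervals of members and of the other sets did not overlap, and most members held no DR5.

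When every spacing from 0 to 10 bases was scanned without mismatch, 3 spacings had the highest shares in members. DR0 was found in 2.18% of members (1.88 to 2.52) and 0.739% of shared peaks (0.687 to 0.795), a ratio of 2.95. DR2 was found in 1.73% (1.46 to 2.03) and 0.429% (0.389 to 0.471), a ratio of 4.04. The other spacings reached at most 0.629% of members, at a spacing of 1, with ratios to shared peaks between 1.64 and 3.16. A general surplus of half-sites was also present, since members held 0.927 ± 1.08 (SD over 8428 windows) half-sites per window and shared peaks 0.697 ± 0.865 (SD over 99415 windows). At least 1 of DR0, DR2 and DR5 was found in 445 members, or 5.28% (4.81 to 5.78), in 1.36% of shared peaks and in 0.704% of LIF-only peaks. These 3 spacings have the highest shares in the same members, so that the pooled shares add no separate support. By ratio to shared peaks, spacings of 4 (3.11) and 8 (3.16) lay above DR0.

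**Figure D2:**
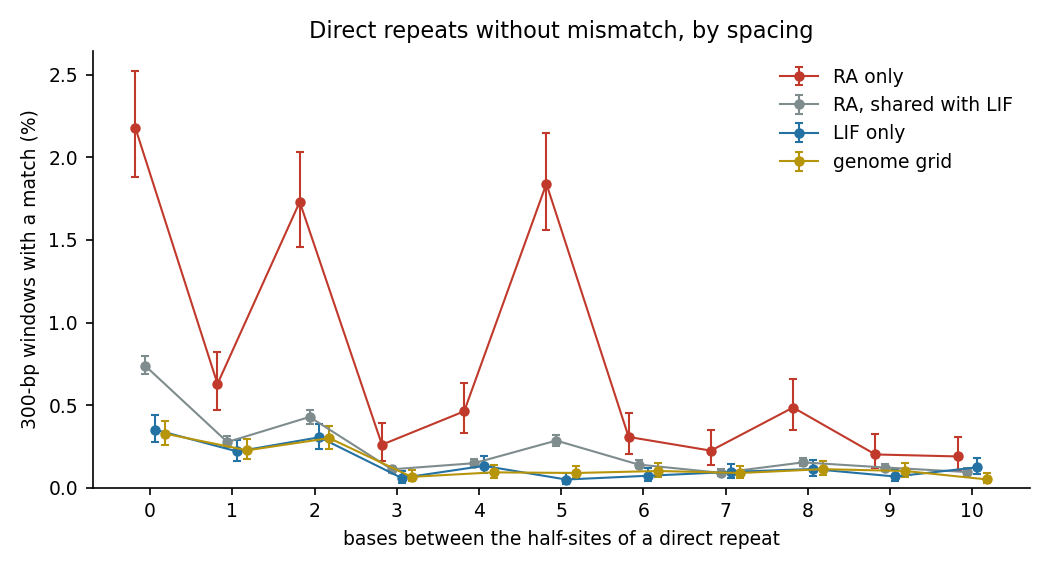
Share of 300-bp windows (y axis, percent) that hold a direct repeat without mismatch, against the number of bases between its half-sites (x axis), with exact 95% intervals, for RA-only, shared and LIF-only peaks and for genome windows placed every 100 kb. RA-only peaks have maxima at spacings of 0 (2.18%), 2 (1.73%) and 5 (1.84%), and LIF-only peaks and genome windows lie below 0.5% at every spacing.

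The 3 classes differed in where they lay relative to repetitive sequence. Of the DR0 matches in members, 75% (68.3 to 80.9) lay mostly in repeat-masked bases, and 63.3% were the same combination, AGTTCA followed directly by AGGTCA. Of DR2 matches 53.1% (44.7 to 61.3) were masked, and of DR5 matches 17.1% (11.9 to 23.4). The masked share was similar in shared peaks, at 73.4%, 55.7% and 16.7%. When masked matches were left out, DR0 remained in 0.558% of members and 0.196% of shared peaks, DR2 in 0.807% and 0.19%, and DR5 in 1.5% and 0.237%. The order of the sets was the same for each class with and without masked matches.

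The half-sites of the DR5 were varied. The commonest pair was GGGTCA with GGGTCA, in 42 of 181 matches, followed by GGGTCA with AGGTCA in 31 and AGGTCA with AGGTCA in 19. In DR2 the commonest pair was AGGTCA followed by AGTTCA, in 46 of 147 matches, as printed above for Dynlt1b and Nfkbiz. Windows with 2 classes were mostly of DR0 and DR2, which stood together in 29 members, of 184 with a DR0 and 146 with a DR2. Of the 155 members with a DR5, 8 also held a DR0 and 3 a DR2.

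The share of members with a DR5 was larger at higher fold. With at most 1 mismatch it was 5.49% (4.93 to 6.1) of 5972 members at a fold of 5 to 6, 9.26% (7.29 to 11.6) of 756 at 7 to 8 and 14.5% (10.5 to 19.4) of 262 at 8 to 10. At 10 or more it was 47.1% (32.9 to 61.5), or 24 of 51 members. Shared peaks lay between 2.32% and 2.71% in all 5 bands, and LIF-only peaks between 0.588% and 1.96%. Fold also chose the members, so that the shares by fold are given as a description.

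**Figure D3:**
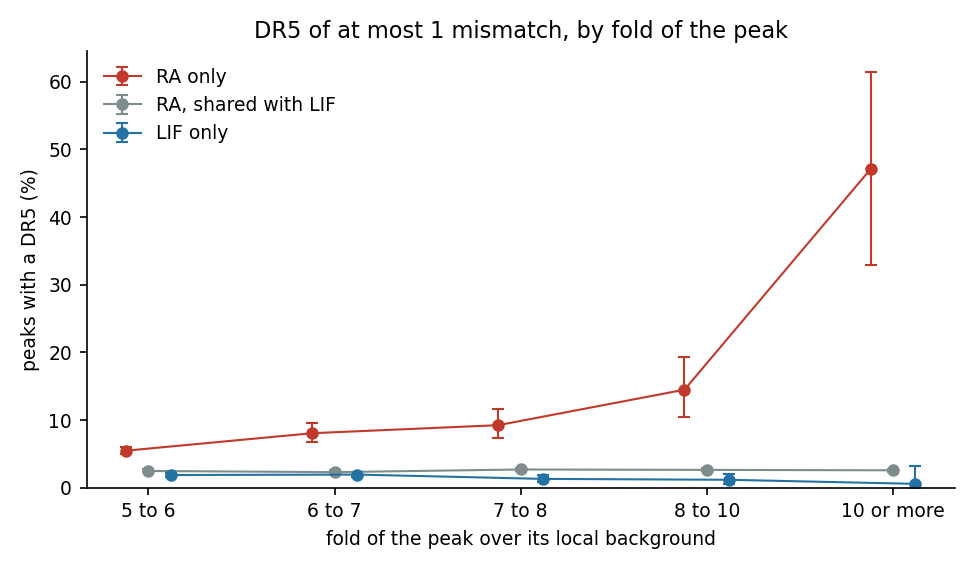
Share of peaks with a DR5 of at most 1 mismatch (y axis, percent) in 5 bands of fold over the local background (x axis), with exact 95% intervals, for RA-only, shared and LIF-only peaks, the last by their fold in the LIF list. The share in RA-only peaks goes from 5.49% in the lowest band to 47.1% in the highest, and in shared peaks it stays between 2.32% and 2.71%.

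DR5 matches lay closer to the summits in members than in shared peaks. Of the 181 matches without mismatch, 118, or 65.2% (57.8 to 72.1), had their centre within 50 bp of the summit, and the median distance was 36.5 bp. In shared peaks it was 50.7% (44.8 to 56.5) of 294 matches, with a median of 49.5 bp. LIF-only peaks had 53.8% (25.1 to 80.8) of 13 matches and a median of 40.5 bp, an interval that includes the share in members. For DR2 the share was 60.5% (52.2 to 68.5) in members, 47.1% (42.3 to 51.9) in shared peaks and 22.4% (13.1 to 34.2) in LIF-only peaks. For DR0 it was 61.7% (54.5 to 68.6), 50.4% (46.8 to 54) and 59.7% (47.9 to 70.8). These intervals are over matches, and the 181 DR5 matches lay in 155 members, so that not all matches were independent. The width of the peaks was not matched between the sets.

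**Figure D4:**
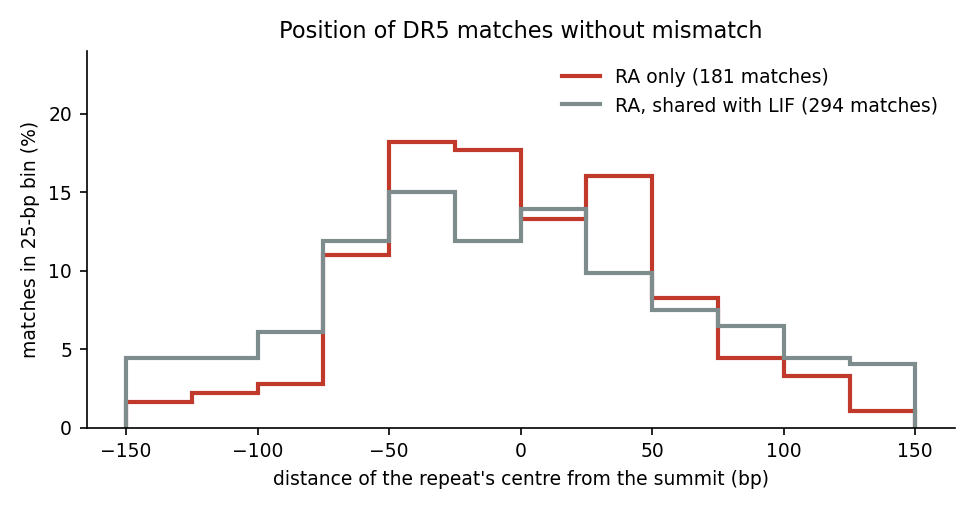
Distribution of DR5 matches without mismatch around the peak summit (x axis, distance in bp, 25-bp bins; y axis, percent of matches) in RA-only and shared peaks. In RA-only peaks 65.2% of the 181 matches and in shared peaks 50.7% of the 294 matches lie within 50 bp of the summit.

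Other factor motifs differed less or in the other direction. The ESRRB site TCAAGGTCA, which contains the half-site AGGTCA, was found in 2.42% of members (2.1 to 2.77) and 1.22% of shared peaks (1.15 to 1.29). Its share in LIF-only peaks was 0.915% (0.793 to 1.05). In windows without any direct repeat of spacing 0 to 10 the site was found in 0.537% (0.387 to 0.725) of members and 0.58% (0.533 to 0.629) of shared peaks. For LIF-only peaks this share was 0.59% (0.492 to 0.702). A DR0 whose second half-site is AGGTCA always spells this site, so leaving out windows with a repeat removed those matches by construction. The GC box GGGGCGGGG, bound by SP1 and its relatives, was found in 1.98% of members (1.69 to 2.3) against 5.51% (5.36 to 5.65) of shared peaks and 2.23% (2.04 to 2.44) of LIF-only peaks. The cyclic AMP element TGACGTCA was found in 0.214% (0.127 to 0.337) of members, 0.697% (0.646 to 0.751) of shared peaks and 0.229% (0.17 to 0.301) of LIF-only peaks. The ETS site CCGGAAGT was found in 0.534% (0.39 to 0.714), 1.59% (1.51 to 1.67) and 0.416% (0.335 to 0.511). The CTCF core, a mark of insulators, was found in 1.72% (1.45 to 2.02), 4.62% (4.49 to 4.75) and 2.18% (1.99 to 2.38). For each of these 4 motifs the share in members was nearer to that in LIF-only peaks than to that in shared peaks. The KLF site, searched as GGGCGTGGC and GGGTGTGGC and bound by the pluripotency factor KLF4, was found in 1.73% of members (1.46 to 2.03), 3.48% of shared peaks (3.37 to 3.6) and 4.11% of LIF-only peaks (3.85 to 4.38). The octamer of OCT4, searched as ATGCAAAT and ATGCTAAT, was found in 5.49% of members (5.02 to 6) and 5.25% of shared peaks (5.11 to 5.39), with overlapping intervals. In LIF-only peaks its share was lower, at 4.46% (4.19 to 4.74).

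The 10 members of highest fold lay in introns in 6 cases and in intergenic sequence in 4, and none lay in an exon or at a gene start. A DR5 without mismatch was present in 4 of them and one of at most 1 mismatch in 7. The highest fold, 13.6, belonged to chr13:84514985-84515507, an intergenic peak 293 kb from the start of Tmem161b and 20.8 kb from the next LIF peak. An intronic peak of Lrmda, chr14:22204006-22204243, also had 13.6, and the nearest gene in the authors' RNA-seq table was Zfp503, 215 kb away, which encodes a zinc finger repressor. A peak in an intron of Amotl1, which encodes a junction protein that binds YAP, had a fold of 12.1. It held a DR5 and a DR0 that overlap, since both begin with the same half-site, GGGTCA. The peak in Nrip1, chr16:76332219-76332402, had 11.9, lay 41.5 kb from its start and held no DR0, DR2 or DR5.

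Cyp26a1, the cytochrome P450 that degrades RA, had no member within 50 kb of its start and 9 shared peaks. Its strongest member, chr19:37789302-37789950, lay 91.7 kb downstream of the start, was 649 bp wide, the widest of all members, and had a fold of 11.3. A member with a fold of 5.33 and a DR5 without mismatch lay 72.5 kb downstream, and members of fold 5.91 and 5.58 lay 97.2 and 129 kb downstream. The 4 members within 150 kb were all on the downstream side. The 200 bp around the strongest summit are printed with each half-site in capitals, beside the peak in Nrip1, a ligand-dependent corepressor of nuclear receptors.
Cyp26a1 member, chr19:37789353-37789552, plus strand: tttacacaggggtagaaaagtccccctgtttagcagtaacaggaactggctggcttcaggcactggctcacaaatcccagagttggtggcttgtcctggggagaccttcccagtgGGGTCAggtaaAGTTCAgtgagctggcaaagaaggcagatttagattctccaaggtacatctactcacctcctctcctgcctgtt
Nrip1 member, chr16:76332228-76332427, plus strand: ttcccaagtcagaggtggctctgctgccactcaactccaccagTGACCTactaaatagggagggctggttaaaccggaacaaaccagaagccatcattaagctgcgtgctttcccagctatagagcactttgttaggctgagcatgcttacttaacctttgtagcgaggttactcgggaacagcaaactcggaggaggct

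The Cyp26a1 window held 2 half-sites, which form the DR5, and the Nrip1 window held 1. Nrip1 had 6 members within 150 kb and no LIF-only peak. Of these, 3 lay within the gene, with folds of 7.01, 11.9 and 5.62. The nearest to the start lay 3.59 kb downstream, and none of the 6 held a DR0, DR2 or DR5 without mismatch.

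**Figure D5:**
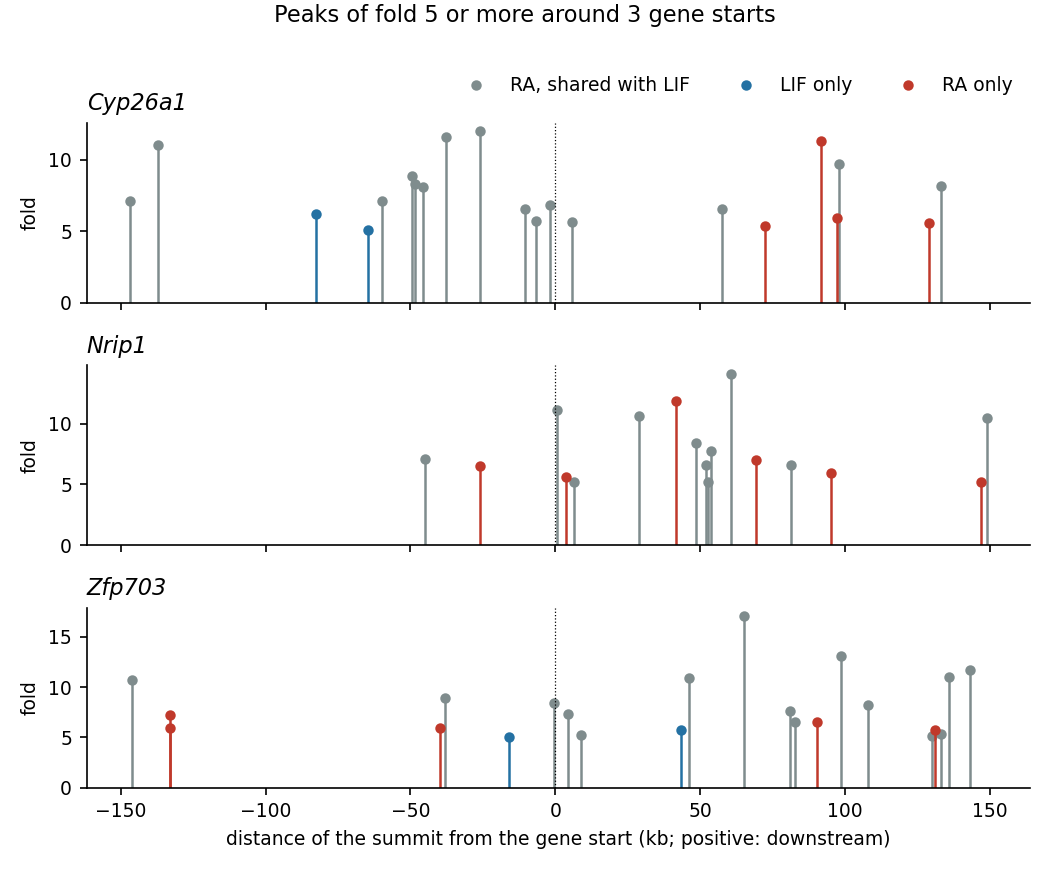
Peaks of fold 5 or more within 150 kb of the starts of Cyp26a1, Nrip1 and Zfp703 (x axis, distance of the summit in kb, positive downstream; y axis, fold in the RA list, and in the LIF list for LIF-only peaks). RA-only peaks number 4, 6 and 5 in these windows, among 15, 11 and 15 shared peaks.

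Of the 22 genes of RA signalling and known RA targets, 11 had a member within 50 kb of their start, 50% (28.2 to 71.8), against 32.6% of 21755 protein-coding genes. The list had 17 members and 20 LIF-only peaks in all, a mean of 0.773 members and 0.909 LIF-only peaks per gene, and all protein-coding genes averaged 0.412 and 1.12. Its interval includes the background share, and the list is small and was put together with results of these data known. The median number of members was 0.5 in the list and 0 over all genes.

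Among the receptors, Rarb had 1 member of fold 7.38, in an intron 26.7 kb downstream of its start, and Rara and Rarg had none but 11 and 12 shared peaks. Rxrg had 2 members upstream, of fold 7.63 and 5.33. Among the enzymes, Cyp26b1, a relative of Cyp26a1, had 2 members, of fold 10.6 and 7.15, that lay 46.9 and 49.7 kb upstream. Dhrs3, which reduces retinaldehyde to retinol, had none within 50 kb. Stra8, a gene induced by RA in germ cells, had a member of fold 5.54 that lay 0.693 kb from its start, with a LIF peak 432 bp away.

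The window with the most members, chr6:84600001-84700000, lay upstream of Cyp26b1 within introns of Exoc6b, a subunit of the exocyst. It held 7 members among 10 RA peaks of fold 5 or more and no LIF-only peak. Their folds were 10.6, 7.15, 7.7, 5.33, 6.55, 8.42 and 7.95, and 5 of them held a DR5 of at most 1 mismatch. Windows at Bard1, which encodes the partner of BRCA1, and in Ttc7b held 6 members each, beside 3 and 1 LIF-only peaks. The windows in Pigk and in Camta1 held 5 members each and no LIF-only peak, and the other windows of 5 members, near Mterf1b and Dctd, held 1 LIF-only peak each.

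Of the 39 Hox genes, 22, or 56.4% (39.6 to 72.2), had a member within 50 kb, against 32.6% of all protein-coding genes, but Hox genes lie side by side and share peaks. HoxB had 1 member, HoxD had 1 and HoxC had none. In the HoxA cluster a member of fold 5.98 lay within an intron of Hoxa3. The HoxB member, in an exon, had a fold of 5.03 and a LIF peak 51 bp away. LIF-only peaks lay within 50 kb of all 39 Hox genes and of 63.2% of all protein-coding genes. More LIF-only peaks than members lay near 31 Hox genes, or 79.5%, and near 50.6% of all protein-coding genes.

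Among the Hox cofactors and posterior genes, 4 of 12 had a member, 33.3% (9.92 to 65.1), near the background of 32.6%. Pbx3, which encodes a DNA-binding partner of HOX proteins, had a member of fold 6.52 that held a DR0, 46.8 kb downstream. Among 18 genes of pluripotency and the LIF pathway, 6 had a member, 33.3% (13.3 to 59). Sox2 had one of fold 8.33 with a DR2, 28.7 kb downstream of its start, and Stat3 had one of fold 5.93. Of 10 neural and endodermal genes, 2 had a member. They were Sox3, with a fold of 5.93 and a DR5, and Sox17, a regulator of endoderm, with a fold of 10.7 at 10.6 kb upstream. The elements near Sox2 and Sox3 are shown because each holds a repeat beside a gene of these lists.
Sox2, chr3:34679053-34679094, minus strand: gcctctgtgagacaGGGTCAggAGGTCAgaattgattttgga
Sox3, chrX:60851729-60851773, plus strand: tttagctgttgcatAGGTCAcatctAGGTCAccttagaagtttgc

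Members lay near the genes of the authors' RNA-seq table less often than shared peaks did. The table lists 2189 genes, of which 2188 were placed, or 4.06% of 53843 annotated genes. A listed start lay within 100 kb of 1649 members, or 19.6% (18.7 to 20.4), of 26.1% (25.8 to 26.4) of shared peaks and of 20.9% (20.3 to 21.4) of LIF-only peaks. For 5.85% of members (5.36 to 6.37) the nearest of all gene starts was a listed gene, against 7.61% (7.45 to 7.78) of shared peaks and 5.48% (5.18 to 5.79) of LIF-only peaks. Among peaks over 1 kb from any start, 19.2% of members and 24.6% of shared peaks had a listed start within 100 kb. Counted by gene, 789 of 1984 listed protein-coding genes, or 39.8% (37.6 to 42), had a member within 50 kb of their start, against 32.6% (32 to 33.2) of all protein-coding genes, with means of 0.518 and 0.412 members per gene. Listed genes also averaged 9.05 shared and 1.33 LIF-only peaks, and all protein-coding genes 7 and 1.12, so that each kind of peak was more frequent near listed genes.

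Members with a DR5 without mismatch had a listed start within 100 kb in 28.4% of cases (21.4 to 36.2), or 44 of 155, and members without any DR0, DR2 or DR5 in 19.2% (18.3 to 20). The median distance to a gene start was 17681 bp for the members with a DR5 and 18429 bp for those without a repeat. At gene starts the shares were 2.58% (0.708 to 6.48) and 6.59% (6.05 to 7.16).

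In all, 1099 listed genes were the nearest listed start within 100 kb of a member, and 110 of them were so for a member with a DR0, DR2 or DR5. A single member was joined to 726 of them and 3 or more to 129. Bard1 was joined to 7 members, the highest number. Ttc7b, Prtg and the noncoding gene 4930589P08Rik were joined to 6 each, and Nrip1, Sfi1, Pigk, Cdv3 and Klhl23 to 5 each. The authors' mean normalised signal was 3034.8 for Bard1, 1185.1 for Nrip1 and 12.1 for 4930589P08Rik, so that genes with many members spanned a wide range of expression.

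Few members overlapped the changing enhancers predicted from histone marks, and those that did lay mostly in regions active in RA. The authors predicted regions whose enhancer probability differed between the states, with 186 regions active in LIF (cluster 1) and 141 active in RA (cluster 2). Members overlapped 15 cluster 2 regions, 10.6% (6.08 to 16.9), and 1 cluster 1 region, 0.538% (0.0136 to 2.96). LIF-only peaks overlapped 2 cluster 2 regions, 1.42% (0.172 to 5.03), and 18 cluster 1 regions, 9.68% (5.84 to 14.9). Shared peaks overlapped 58.9% of cluster 2 and 75.3% of cluster 1. The 16 members concerned were 0.19% (0.109 to 0.308) of all members.

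Of these 16 members, 11 lay in introns, 3 in intergenic sequence and 2 in exons, and 5 held a DR0, DR2 or DR5 without mismatch. The highest fold was 10.5, in an intron of Igsf21, which encodes a synaptic adhesion protein, where the enhancer probability was 0.042 in LIF and 0.96 in RA and no LIF peak lay in the region. A member of fold 9.71 lay in an intron, 57.9 kb from the start of Kcnab2 and 59 kb from that of Nphp4. Its region had probabilities of 0 and 1. The Zfp703 region, 133 kb upstream of a gene that encodes a zinc finger corepressor, held 2 members, of fold 7.18 and 5.96, and no LIF peak, with probabilities of 0 and 0.99. The Dhrs3 region, 142 kb from its start, held a member of fold 7.13, but a LIF peak of fold 15.5 lay in the same region.

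The remaining cluster 2 members included one of fold 6.98 with a DR2, 41.8 kb upstream of Tbx3, a T-box factor of the pluripotency network. A DR5 without mismatch was also present in a member of fold 6.97, 1.4 kb from H2al3 on X. The member in a cluster 1 region had a fold of 5.76 and lay 36.1 kb from Ropn1l, in a region of 7300 bp that also held LIF peaks of fold up to 8.01. The sequences of the cluster 2 members near Zfp703, H2al3 and Tbx3 are shown with their half-sites in capitals, and that near Igsf21 as the 200 bp around its summit.
Zfp703, chr8:26844590-26844634, minus strand: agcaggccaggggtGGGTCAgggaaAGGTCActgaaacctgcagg
H2al3, chrX:9851092-9851136, plus strand: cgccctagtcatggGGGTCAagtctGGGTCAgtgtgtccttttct
Tbx3, chr5:119628911-119628952, plus strand: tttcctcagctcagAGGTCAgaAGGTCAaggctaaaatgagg
Igsf21 member, chr4:140227892-140228091, plus strand: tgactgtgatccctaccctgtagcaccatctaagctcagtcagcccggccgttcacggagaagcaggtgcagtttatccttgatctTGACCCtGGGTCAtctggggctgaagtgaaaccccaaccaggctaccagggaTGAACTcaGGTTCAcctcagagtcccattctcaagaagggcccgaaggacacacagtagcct

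The Igsf21 window held 4 half-sites, and none of them formed a DR0, DR2 or DR5 without mismatch.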

How the data were processed

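ATAC-seq of E14 cells in LIF or RA was used with 1 library per state. Both peak lists are the authors' MACS2 output on GRCm38, made from BWA-MEM alignments without duplicates (SAMtools). In the deposited peak lists, column 7 is a fold ratio over the local background, and the following columns are −log10 p and q values. MACS2 parameters and read totals are not given in the sources used here. For the dynamic regions, the authors' CRUP workflow gave an enhancer probability, a fraction from 0 to 1, per state. Its p-value column was not used. The authors' DESeq2 table holds a mean normalised signal, log2 fold changes and p-values per gene, and only the gene list and the mean were used.

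RA-only, shared and LIF-only peaks were compared with Python 3, NumPy and SciPy, without tests. Gene starts came from GENCODE, sequences from RefSeq's GRCm38.p6. A total of 19 motifs were searched in 300 bp around each summit, with at most 1 mismatch for DR5, DR2 and DR1 where stated and none otherwise. Functions were tested on simulated data. The members named are the 10 of highest fold among all, with a DR5 and in cluster 2 regions, the 100-kb windows with most members, and genes of 5 lists. Gene-start members, the genome windows, the bands of fold, the masking check and the sequences of further members were chosen after the values were seen. Members and lists were chosen with earlier results of these data known. No sequence of chromosome 18 is printed. Some members and genes chosen by these rules are not reported here.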

Additional observations from a re-analysis of the deposited data

How the results depend on the processing

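The number of members depended on the thresholds. It was 19867 with no minimum fold, 313 at a fold of at least 8, 429 at a −log10 q of at least 10 and 14515 when only LIF peaks of fold 5 or more counted as overlap. It moved by less than 1.5 times, to 6561, when no LIF peak was allowed within 500 bp, and was 8428 when distinct intervals were counted.

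The share at a gene start was 3.18% for protein-coding genes only, 4.02% within 500 bp, 4.47% at a fold of at least 8 and 3.87% without LIF peaks within 500 bp. The share with a DR5 was 4.65% in the whole peak, 3.33% in 100 bp around the summit, 1.84% with no mismatch, 19.8% at a fold of at least 8 and 7.62% without LIF peaks within 500 bp. It was 7.02% over 1 kb from any gene start, and 1.5% for matches with no mismatch outside repeat-masked bases, an alternative chosen after seeing the data. In the whole peak, in 100 bp, with no mismatch, at a fold of at least 8 and over 1 kb from gene starts, the share in members exceeded those in shared and LIF-only peaks, with no overlap of the intervals. The share near a listed gene was 5.01% within 20 kb, 5.85% where the nearest of all starts was listed and 21.7% at a fold of at least 8. Members in cluster 2 regions numbered 3 at a fold of at least 8, 15 with the summit inside and 20 within 1 kb, and those in cluster 1 regions numbered 2 within 1 kb. No paired analysis was possible because each state had 1 library and no test was made. Depth is unknown, so that a region without a LIF peak may have been accessible in LIF below the level at which a peak was called.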

Other observations

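At each spacing from 0 to 10, inverted and everted pairs of the half-site were rarer in members than direct repeats of the same spacing. An inverted pair with no base between was found without mismatch in 21 members, or 0.249% (95% interval 0.154 to 0.381), which was 3.75 times the share in shared peaks. Everted pairs spaced by 9 bases were found in 12 members, or 0.142% (0.0736 to 0.249), 3.08 times the share in shared peaks. All other inverted and everted spacings from 0 to 10 were found in at most 12 members. Direct repeats spaced by 8 were found in 41 members, or 0.486% (0.349 to 0.659), against 0.154% of shared peaks.

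The members with a DR0, DR2 or DR5 within 100 kb of a listed gene included peaks near Nr6a1, an orphan nuclear receptor, with a fold of 8.3, near Lefty1, an inhibitor of Nodal, with a fold of 7.63, and near Hic1, a transcriptional repressor, with a fold of 7.74. These 3 genes were picked after the values were seen.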
